A study of Mus musculus with 13 samples.

Results

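The baseline transcriptome of cultured mouse cortical neurons was described from the 4 vehicle control samples of a series of 13 arrays, the members being the samples whose labels give vehicle as the agent. No treated sample was used. The neurons came from the neocortex of fetal Swiss albino mice at gestational day 15 or 16 and were on day 5 of culture. The rest of the series received 10 nM rotenone for 8 h, 15 h or 24 h (n = 3 each), and its titles mark the vehicle controls as shared with a second treatment. The identity of the vehicle, the time at which these cultures were harvested and the number of separate cultures or litters behind them are not stated in the labels, and the spread between the 4 samples may be partly technical. In bulk RNA, fewer cells of a type and less RNA per cell cannot be told apart.

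Dissociated fetal neocortex yields mainly projection neurons that release glutamate, with a smaller number of interneurons that release GABA and migrated into the cortex from the ventral forebrain. Radial glia, the stem cells of the fetal cortex, and their astrocyte and oligodendrocyte descendants are carried along and can go on dividing in the dish. Young neurons in culture extend axons and dendrites first and build synapses later, and they switch on a class of rapid transcription factors, the immediate early genes, when they fire or are disturbed.

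RNA was hybridised to Illumina MouseRef-8 bead arrays, on which each probe is carried by many beads whose mean brightness is the signal. A gene is represented by its brightest probe. It is called detected when the probe's detection p was under 0.05 on all 4 arrays, that is, when the probe was brighter than nearly all of the array's background probes. For 14713 of the 24613 probes the detection p is the authors' own. For the rest it was read from each array's relation of the authors' score to signal. Between 51.1% and 53.3% of 24613 probes were detected per array. Of 17420 genes with a probe, 9085 (52.2%) were detected on all 4 arrays and 6679 (38.3%) had no probe detected on any. The share of 52.2% is the one to set beside every count of detected list members below. Unless stated otherwise, values below are background-corrected signals scaled to a common distribution over the 4 arrays, called normalised signal. The lowest detected normalised signal was 77.0 to 79.2 per array, the median detected gene stood at 292 and the gene at the 99th percentile at 9178. Every percentile is the place of a gene's signal among the 9085 detected genes. Probes differ in how well they bind, so a percentile ranks signals and is not an amount of RNA. Of 2971 detected genes with several probes, 41.1% had another probe that was detected on no array, and a gene listed as not detected may be one with a poor probe.

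Replicate 3 stood apart from the other arrays. It was the farthest of the 4 by at least 2-fold in 34 genes, against 0, 1 and 3 genes for replicates 1, 2 and 4. Without replicate 3, 9180 genes were detected on the remaining arrays and 24 of the 25 brightest genes stayed among the 25 brightest. Replicates 1 and 2 share a chip, as do replicates 3 and 4. The array named in each label was not the array whose signals are identical to those deposited for that sample, but both assignments put the same 2 replicates together on each chip.

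The 25 brightest genes carried 5.90% of the summed signal of detected genes, and the 1000 brightest carried 57.0%. Ubb, which encodes ubiquitin, ranked first, with a deposited signal of 23979, 22045, 26998 and 22953 on replicates 1 to 4. Ybx1, an RNA-binding protein that packages messenger RNA, and Rps27a, a fusion of ubiquitin and a ribosomal protein, followed. Hmgcs1, the enzyme that commits acetyl units to the sterol pathway, was the next in rank, with normalised signals of 20951, 20951, 19930 and 19039. Scd2, the brain form of stearoyl-CoA desaturase, which makes monounsaturated fatty acids, ranked 12th, with 17675, 16625, 20377 and 18200. Hmgcs1 was lowest on replicate 4 and Scd2 highest on replicate 3. Others among the 25 were Actb, Rplp1, Rpl41, Ppia, Rps20, Rpl38, Ywhag, Eef1a1, Rpl37, Pigt, Hspa8, Atp5b, Rps29, Rpl23, Rpl27a, Nrep, Atpif1, Rps9 and Dbi. The probes of some of these genes disagreed. Pigt had 16459 with the probe used and 65.0 with its other probe, which was detected on no array. Rpl37 had 16855, and its other probes, at 66.8 and 66.2, were detected on no array. Atp5b and Atpif1 encode a subunit and an inhibitor of the mitochondrial ATP synthase, and Dbi binds acyl-CoA esters.

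Ribosomal protein genes made up 11 of the 25 brightest genes and 33 of the 91 genes at or above the 99th percentile. Of 80 measured members 74 were detected (92.5%, against 52.2% of all genes), with a median percentile of 98.8 and a median SD between arrays of 0.08 on the log2 scale, against 0.12 for all detected genes. At the low end Rpl14, Rps19 and Rpl29 had percentiles of 4.70, 7.76 and 12.3, although their proteins are present in each ribosome in the same number as most of the others. Rpl3l and Rpl39l, copies used in muscle and testis, and Rpsa were detected on no array. Vertebrate ribosomal protein messenger RNAs characteristically begin with an unbroken run of pyrimidines, through which the cell sets how strongly they are translated. The start sequences of 4 bright ribosomal protein genes with a run of pyrimidines across the annotated start are printed here. Not every gene was open to this choice, so a brighter gene with such a run may be missing. They are given as RefSeq sequence of the build GRCm38.p6 from 30 bases before the start to 15 bases from it. In all 4 the run begins before the annotated start, and in Rps9 most of it lies there. The strand is that of the gene, and the capitals mark a run of at least 8 pyrimidines.
Rpl38 (chr11:114668550-114668594, + strand): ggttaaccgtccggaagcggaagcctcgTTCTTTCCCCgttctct
Rpl27a (chr7:109519165-109519209, + strand): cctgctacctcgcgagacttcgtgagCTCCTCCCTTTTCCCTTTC
Rps9 (chr7:3704011-3704055, + strand): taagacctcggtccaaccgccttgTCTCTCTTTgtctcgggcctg
Rps18 (chr17:33955651-33955695, - strand): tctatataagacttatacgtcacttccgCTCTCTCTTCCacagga

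A run of at least 8 pyrimidines lying between 10 bases before and 15 bases after the start base was found in 20 of 54 detected ribosomal protein genes with a RefSeq start (37.0%), against 9.55% of all genes with a probe. The annotated start can differ from the start used in these cells.

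Genes that mark neurons of every class were detected in 12 of 14 cases (85.7%, against 52.2% of all genes), at a median percentile of 88.7. The highest were genes of growing axons. Stmn2, a stathmin that destabilises microtubules in growth cones, had normalised signals of 8859, 9718, 8845 and 9314 on replicates 1 to 4. Gap43, a membrane protein of the growth cone, had 8960, 8482, 8960 and 7735. Dcx, a microtubule-binding protein of migrating and immature neurons, had 7222, 7357, 6641 and 6228. All 3 genes lay above the 98th percentile with an SD of 0.07 to 0.11 on the log2 scale (n = 4). Uchl1, a neuronal ubiquitin hydrolase, stood at percentile 97.5, Eno2, the neuronal enolase, at 94.2, and the synaptotagmin gene Syt1 and the RNA-binding protein gene Elavl3 both at 88.7. Further down were Map2 (59.7), Tubb3 (57.2), Ncam1 (49.2), Nefm (42.2) and Elavl4 (25.4). The probes for Snap25, a vesicle fusion protein, and Nefl, the light neurofilament, were detected on no array.

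The cytoskeletal lists sat at the same end of the scale. Of 21 measured genes of microtubule associated and growth cone proteins 20 were detected, at a median percentile of 97.3, with 13 among the brightest 10% of detected genes. They included the collapsin response mediators Dpysl2 (99.7), Dpysl3 (98.98) and Crmp1 (97.3), which carry guidance signals to microtubules, the axonal protein Mapt (99.3) and Map1b (98.4). At the low end were Map4 (21.9) and Map1a (22.5), and Map1a is a protein that accumulates as neurons mature. Among tubulins 16 of 17 were detected. Tubb2b (99.6), Tubb5 (99.6) and Tubb4b (98.9) led and Tubb2a (7.07) closed the list. The closely related tubulin genes differ by few bases, and whether each probe reads only its own gene was not tested. Stmn3 (97.3), Stmn4 (95.7) and Stmn1 (90.6) followed Stmn2, whereas the thymosin gene Tmsb4x was detected on no array and Tmsb10 stood at 24.5. Of 13 intermediate filament genes 8 were detected, with Vim (96.5) highest and the peripheral neurofilament Prph (12.9) lowest.

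**Figure D1:**
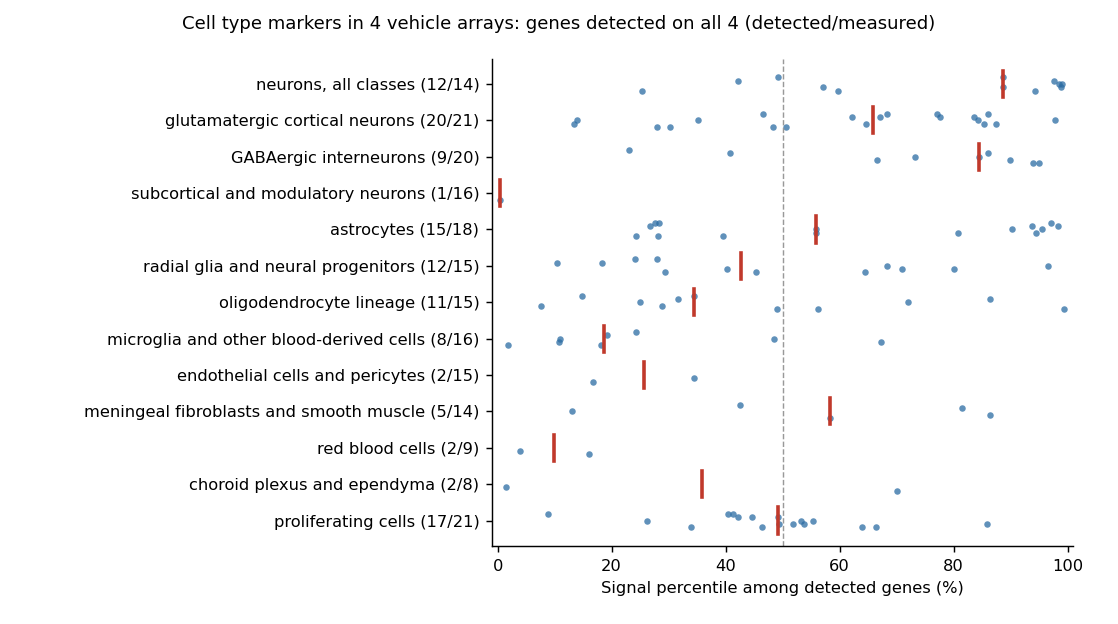
Each point is a marker gene detected on all 4 vehicle arrays, placed by the percentile of its mean normalised signal among the 9085 detected genes (x axis, %), with a red bar at the list's median and, beside each list, the genes detected of those measured. A dashed line marks the median of all detected genes. Pan-neuronal and GABAergic markers had medians of 88.7 and 84.4, while endothelial, red blood cell and modulatory neuron markers were detected in 2 of 15, 2 of 9 and 1 of 16 cases.

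Markers of glutamatergic cortical neurons were detected in 20 of 21 cases (95.2%), at a median percentile of 65.9. They include transcription factors of the deep cortical layers, whose neurons are born first, and of the upper layers. Bcl11b and Fezf2, which specify neurons projecting to the brainstem and spinal cord, stood at 85.4 and 84.2, Sox5 at 77.6 and Tbr1, which marks neurons projecting to the thalamus, at 68.3. The upper layer genes Cux1, Cux2 and Rorb stood at 67.2, 46.6 and 35.1. These places rank the signals of single probes, and no difference between genes was tested. Mef2c, a factor of maturing neurons, was the brightest member, with 5288, 4910, 7260 and 5942 on replicates 1 to 4. Slc17a6, the vesicular glutamate transporter that predominates in young neurons, had 1717, 1606, 1555 and 1365, whereas Slc17a7, the form that predominates in the adult cortex, had 297, 333, 257 and 230. Neurod2, a factor of differentiating neurons, stood at 83.6. Reln, the secreted signal of Cajal-Retzius cells and some interneurons, had 702 and 682 on replicates 3 and 4 and 1031 and 1129 on replicates 1 and 2. Reln was picked after its values were seen, and no gene passed the test between the chips given below. Foxp2 (13.3), a factor of the deepest layer, and Neurod1 (13.8) were the dimmest detected members.

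GABAergic interneuron markers covered a wide range. Of 20 measured members 9 were detected, below the 52.2% of all genes, and 8 were detected on no array, but the 9 had a median percentile of 84.4. Sst, the peptide of one large interneuron class, had 3058, 2955, 3462 and 3287. Gad1, which makes GABA from glutamate, had 3034, 3037, 3189 and 1904, and replicate 4 was the low array. Slc32a1, which loads GABA into vesicles, had 2210, 2091, 1791 and 1477. The interneuron fate factors Dlx2 and Dlx1 stood at 86.0 and 84.4 and Dlx6 at 23.0. Calb2 (73.2), Npy (66.6) and Sp8 (40.8) were also detected. Gad2, Vip, Calb1, Nos1 and Erbb4 were among those detected on no array, and Dlx5, Lhx6 and Pvalb were detected on some arrays only. Gad2 encodes another enzyme that makes GABA.

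Genes that define neurons outside the cortex were nearly all below the detection limit. Of 16 measured markers of modulatory neurons 12 were detected on no array. These were the dopamine, noradrenaline and serotonin genes Th, Ddc, Dbh, Slc6a2, Slc6a4, Slc18a2, Fev and Pitx3, the acetylcholine genes Chat, Slc18a3 and Slc5a7, and Hdc, which makes histamine. Isl1 was detected on all arrays with 80.5 to 83.0, just above the detection limit. The Hox genes, which are silent in forebrain and pattern the hindbrain and spinal cord, were detected in 4 of 38 cases (10.5%), namely Hoxb1 (14.7), Hoxb4 (12.2), Hoxc8 (4.70) and Hoxc6 (1.35), and 27 were detected on no array.

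The machinery of vesicle release was largely in place by signal rank. Of 30 measured genes 23 were detected (76.7%), at a median percentile of 87.9. Syt11 (99.3), Syt4 (97.9), Cplx1 (97.4), Stx1a (96.5) and Syp (96.1) were among the brightest, and Vamp1 (14.2) and the priming factor Unc13a (1.12) the dimmest. Bsn, Synj1 and Syt2 were detected on no array, as was Snap25. Every one of 20 measured genes of postsynaptic scaffolds and kinases was detected, at a median percentile of 55.5. Camk2b, the calcium/calmodulin kinase subunit that leads in development, had 6132, 6200, 6506 and 5624, whereas Camk2a, the subunit of mature excitatory neurons, had 257, 269, 185 and 257. The scaffold gene Dlg4 had 493, 470, 336 and 328.

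Transmitter receptors and ion channels ranked lower. Of 23 glutamate receptor genes 12 were detected (52.2%, the same share as all genes), at a median percentile of 20.9. The AMPA receptor genes Gria2 and Gria1 stood at 97.3 and 80.9 and the metabotropic receptor Grm5 at 80.1. The NMDA receptor gene Grin1 stood at 16.6, Grin2c at 20.3, and Grin2a, Grin2b and Grin2d were detected on no array. Among GABA and glycine receptors 13 of 25 genes were detected (52.0%, near the share of all genes). They included Gabrb1 (81.9), the fetal glycine receptor subunit Glra2 (79.9) and the scaffold Gphn (68.1). Slc12a2, which brings chloride into immature neurons, stood at 78.7 with 984, 1095, 1006 and 712, and Slc12a5, which takes chloride out as neurons mature, was detected on no array. Of 25 sodium and calcium channel genes 18 were detected at a median of 34.4, with Cacna2d1 (81.3) the brightest. Of 36 potassium channel genes 23 were detected at a median of 27.6, with Kcnk2 (87.1), Kcna6 (84.8) and Kcnd2 (77.2) the brightest. Of 31 genes of neuropeptides and their processing 20 were detected. Cpe, which trims peptide precursors, stood at 98.0 and Cck at 79.5, while the hypothalamic peptides Pomc, Crh, Avp, Oxt and Hcrt were detected on no array. The peptide genes Cartpt, Nts, Pdyn and Adcyap1 were detected on all arrays.

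**Figure D2:**
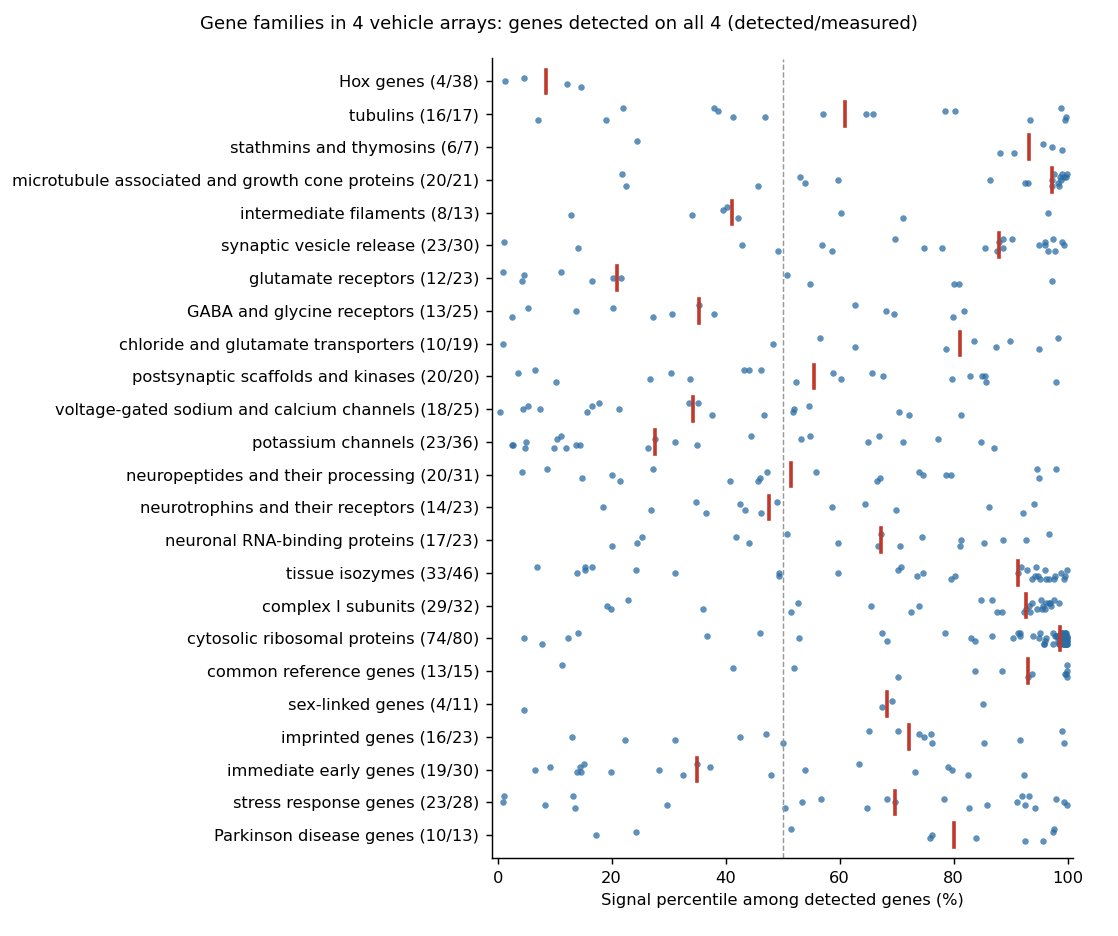
Each point is a gene of a family detected on all 4 vehicle arrays, placed by the percentile of its mean normalised signal among detected genes (x axis, %), with a red bar at the family's median and the genes detected of those measured beside its name. A dashed line marks the median of all detected genes. The ribosomal protein, growth cone and complex I lists had medians of 98.8, 97.3 and 92.7, and the Hox and glutamate receptor lists 8.43 and 20.9.

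Glial genes were present in the neuronal cultures, some of them with signals among the highest. Astrocyte markers were detected in 15 of 18 cases (83.3%) at a median percentile of 55.9, and 6 of them lay in the brightest 10%. Slc1a3, the glutamate transporter of radial glia and astrocytes, had 6860, 6594, 6787 and 6987. Gja1, a gap junction protein, had 4652, 4693, 4116 and 5474, and Apoe, a lipid carrier, had 3293, 3504, 2858 and 4175. Aldoc (94.5), Clu (93.7) and Sox9 (90.3) followed. Gfap, the filament of mature or reactive astrocytes, had 174, 170, 180 and 329, and replicate 4 was the high array. Slc1a2, the transporter of mature astrocytes, and S100b were detected on no array. The astrocyte list summed to 24942, 24878, 24103 and 28195 over its 18 measured genes, highest on replicate 4. Ntsr2 (530 on replicate 4, against 334, 326 and 289) and Aqp4 (1376 on replicate 4, against 983, 980 and 866) were high on the same array. Not all members were. Glul and Acsl6 differed on replicate 4 by -0.235 and -0.186 log2 units from the mean of the other arrays.

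Among genes of radial glia and neural progenitors 12 of 15 were detected (80.0%) at a median percentile of 42.8. Vim had 3687, 3760, 4327 and 4980, Prom1 stood at 80.1, Insm1 at 71.0, Tnc at 68.3 and the Notch target Hes5 at 64.5. The stem cell factor Sox2 (45.3), Nes (40.2), Hes1 (27.9), Neurog2 (24.1), Fabp7 (18.4) and Eomes (10.4), which marks intermediate progenitors, lay in the lower part. Pax6, Hopx and Btg2 were detected on no array. Of 21 genes of dividing cells 17 were detected (81.0%) at a median percentile of 49.2, including Ccnd2 (85.8), Mcm5 (66.4), Ccnd1 (64.0), Plk1 (55.3), Top2a (53.7) and Ccnb1 (53.2).

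Genes of the oligodendrocyte lineage were detected in 11 of 15 cases (73.3%, against 52.2% of all genes), from its early genes to some of myelin. Olig1, a factor of the whole lineage, had 11411, 10713, 10785 and 11099 and stood at percentile 99.3. Pdgfra, the growth factor receptor of the precursors, had 1508, 1748, 1249 and 1362, and Sox10 684, 643, 727 and 682. Genes of the step before myelination followed, Bcas1 at 56.1 and Gpr17 at 49.0. The myelin genes Cnp (31.6), Ugt8a (14.8) and Mbp (7.63) were near the low end and Mog, Mag and Mobp were detected on no array. Olig2, which is expressed together with Olig1 in the lineage, stood at only 28.8, with 158, 161, 127 and 149. Olig1 and Olig2 were each read by 1 probe.

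Blood and vessel cells left weaker traces. Of 16 microglia and other blood-derived cell genes 8 were detected at a median percentile of 18.7. Laptm5 (67.3) and Lyz2 (48.5), a lysozyme of macrophages, were the brightest. C1qc (24.3), C1qb (19.3), Cd68 (18.2), C1qa (10.9), Trem2 (10.9) and Aif1 (1.87) had signals of 79.9 to 154 on all arrays, and Cx3cr1, Csf1r, Itgam, P2ry12, Ptprc and Fcer1g were detected on no array. Of 15 endothelial and pericyte genes only Cspg4 and Pdgfrb were detected on all arrays (13.3%), and Cspg4 is also a gene of oligodendrocyte precursors. Cdh5, Kdr, Tie1, Tek and Eng were detected on no array. Of 14 genes of meningeal fibroblasts and smooth muscle 5 were detected (35.7%). These were Pdgfra (shared with oligodendrocyte precursors), Acta2 (81.5), Dcn (58.3), Igf2 (42.6) and Fn1 (13.1). The collagen genes Col1a1, Col1a2 and Col3a1 were detected on no array. Of the red blood cell genes Hba-a1 (16.0) and Klf1 (3.96) were detected, and of the choroid plexus genes Ttr (70.1) and Kcne2 (1.41).

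The next sequences are those around the start of a marker that was detected and of one that was not, because base composition around the start differed between such genes. They are marker genes whose ratio of observed to expected CpG lies near the median of their class. The stretches run from 130 bases before the start to 20 bases from it on the gene's strand, in RefSeq sequence of GRCm38.p6, and the capitals mark CG.
Dlx1 (chr2:71529315-71529464, + strand): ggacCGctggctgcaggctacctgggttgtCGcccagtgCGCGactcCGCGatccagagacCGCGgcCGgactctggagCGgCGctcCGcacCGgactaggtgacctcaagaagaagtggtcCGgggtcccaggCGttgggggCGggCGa
P2ry12 (chr3:59262966-59263115, - strand): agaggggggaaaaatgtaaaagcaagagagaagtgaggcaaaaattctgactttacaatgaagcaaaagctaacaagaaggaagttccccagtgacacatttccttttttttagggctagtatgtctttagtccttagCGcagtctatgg

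RefSeq starts were matched by symbol for 13807 of 17420 genes. Over the window from 250 bases before to 50 bases after the start, the ratio of observed to expected CpG had a median of 0.77 in the 7289 detected genes with a start and 0.30 in the 5239 genes detected on no array, and the median GC content was 61.3% and 51.3%. Dlx1 had a ratio of 0.77 and P2ry12 of 0.30. The GC box GGGCGG was found on either strand in 65.3% of detected genes, in 31.0% of genes detected on no array and in 50.7% of all genes with a probe. The TATA box TATAAA, on the gene's strand between 40 and 16 bases before the start, was found in 1.23% of detected genes, in 4.70% of genes detected on no array and in 2.70% of all genes. These are shares of letter matches over genes that are not independent, and no test was made of them.

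**Figure D3:**
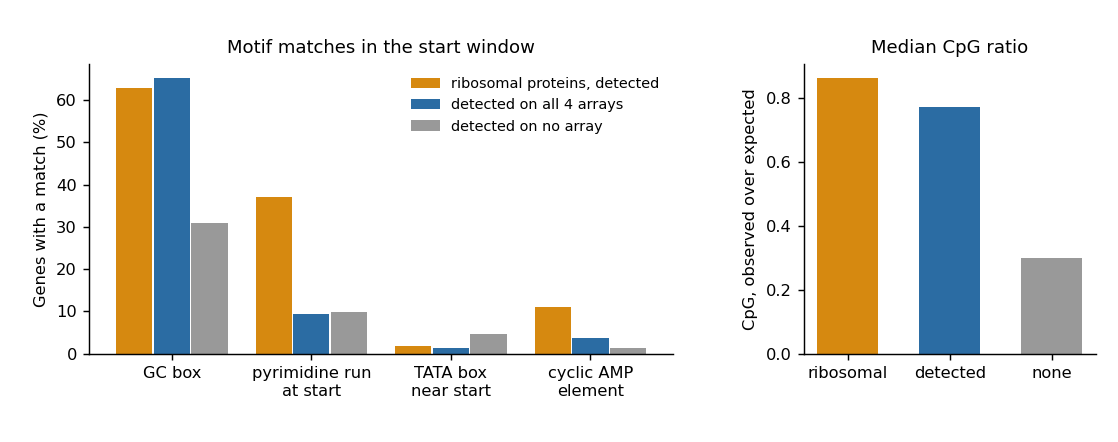
Bars give the share of genes (y axis, %) with a letter match in the RefSeq window around the start, and on the right the median ratio of observed to expected CpG, for detected ribosomal protein genes, genes detected on all 4 vehicle arrays and genes detected on no array. The GC box was found in 65.3% of detected genes and 31.0% of genes detected on no array, and the pyrimidine run in 37.0% of ribosomal protein genes.

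Of 32 measured subunits of complex I, the first enzyme of the respiratory chain and the target of rotenone, 29 were detected (90.6%) at a median percentile of 92.7, and 16 lay in the brightest 10%. Ndufa13 (98.6), Ndufb8 (97.7), Ndufv3 (97.0), Ndufa1 (97.0), Ndufs5 (96.8) and Ndufc1 (96.2) were the brightest, Ndufb11 (19.2), Ndufb10 (19.96) and Ndufb2 (22.9) the dimmest, and Ndufs1 and Ndufab1 were detected on no array. Among enzymes and carriers that exist in tissue forms 33 of 46 genes were detected, at a median percentile of 91.3. Ckb, the brain creatine kinase, had 14344, 13732, 14469 and 13951, whereas Ckm and Ckmt2 of muscle were detected on no array. The ubiquitous enzymes Ldha (96.3), Pkm (95.98) and Pgk1 (93.7) were detected, and Ldhc and Pgk2 of testis and Pklr of liver were detected on no array. Not all muscle forms were missing. Eno3, the muscle enolase, was detected at percentile 14.0. The muscle or heart forms Pfkm, Cox6a2 and Cox7a1 were also detected on all arrays, Pfkm with a mean normalised signal of 3292. Slc2a3, the neuronal glucose transporter, had 3064 on replicate 3, against 1949, 1964 and 1682 on replicates 1, 2 and 4.

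Of 28 stress response genes 23 were detected (82.1%, against 52.2% of all genes), at a median percentile of 69.7. The constitutive chaperones Hspa8 (99.8), Hsp90ab1 (97.9) and Hspd1 (94.3) and the metallothionein Mt1 (99.4) led, with Asns (93.2), the asparagine synthetase, close behind. Gdf15, Trib3, Gclc and Gadd45b were detected on no array. Of 13 genes linked to Parkinson disease 10 were detected (76.9%), at a median of 80.0. Uchl1 (97.5), Park7 (97.4) and Vps35 (95.8) were the brightest. Sncb stood at 83.9, Pink1 at 76.2, Atp13a2 at 75.9, Htra2 at 51.5, Pla2g6 at 24.4 and Fbxo7 at 17.2. Sncg and Lrrk2 were detected on some arrays only. Of 23 imprinted genes, which are read from 1 parental copy, 16 were detected (69.6%), led by Ndn (99.4), Snrpn (99.1) and Nnat (91.7).

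Genes often used as references for normalisation differed in spread. Gapdh (12848, 12942, 12734 and 14149), Ppia (18727, 19620, 18361 and 18727) and Eef1a1 had an SD of 0.07, 0.04 and 0.04 on the log2 scale. With arrays scaled by their medians only, these SDs were 0.07, 0.06 and 0.10, so the order of the genes depended on the scaling. Tfrc, the transferrin receptor, had 1380 on replicate 3, against 3357, 3034 and 2763 on replicates 1, 2 and 4, an SD of 0.58. Sdha was detected on no array, Ywhaz on some only, and Gusb stood at 11.4.

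The spread between the 4 arrays was small for most genes. The median SD of log2 signal was 0.12 over the 9085 detected genes, and 0.10 with replicate 3 left out. It was largest in the middle of the signal range, with a median of 0.14 between the 25th and 75th percentile and of 0.08 in the top percentile. The offset of 50 added in background correction narrows log2 differences of dim genes. Scaling to a common distribution can narrow those of the brightest. The part of the processing in this pattern was not tested. For 6208 probes the deposited bead SD and bead number gave the error of the mean over beads. The SD between arrays was 2.08 times that error at the median, with 35 beads per probe. For this ratio the signals were scaled by array medians only, without background correction. On that scale replicates 1 and 2 differed by 1.38 times the bead error, the other pairs by 2.29 to 2.82 times. With normalised signals set against the same bead errors the values were 1.21 and 2.06 to 2.59. The SD of the log2 difference between 2 arrays over genes was 0.12 for replicates 1 and 2 and 0.29 for replicates 3 and 4, although each pair shares a chip, and 0.21 to 0.26 for pairs on different chips. Pearson's r across genes was 0.985 to 0.997 for the 6 pairs. Genes are not independent replicates, and the arrays share probes.

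**Figure D4:**
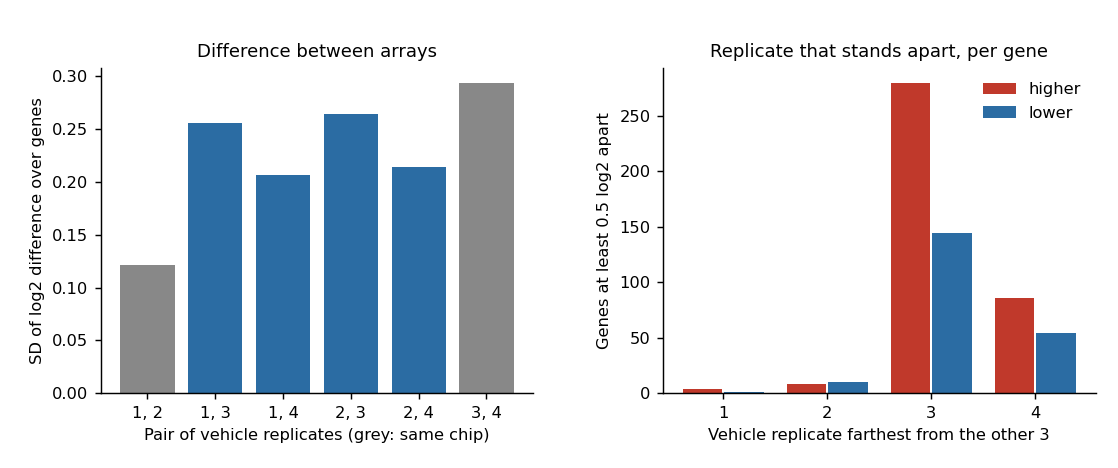
Left, the SD over detected genes of the log2 difference between each pair of vehicle arrays (y axis), in grey for pairs on the same chip, with 0.12 for replicates 1 and 2 and 0.29 for replicates 3 and 4. Right, for each replicate, genes in which it was the array farthest from the median of the 4 arrays. Bars count those at least 0.5 log2 units higher or lower than the mean of the others. The total was 423 for replicate 3 and 140 for replicate 4.

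The 12 genes of the largest SD above the median signal were Scg2, Arpp21, Fosl2, Rgs4, Nxph2, Scd1, Fbxw5, Pcdh20, Lrrtm1, Srxn1, Hmox1 and Tfrc, and in 11 of them replicate 3 was the array farthest from the others. Scg2, a precursor of secreted neuropeptides, had 2224 on replicate 3, against 389, 418 and 965 on replicates 1, 2 and 4. Rgs4, which shortens G protein signals, had 2370 on replicate 3, against 820, 843 and 848. Scd1, a desaturase of fatty acid synthesis, had 2590 on replicate 3, against 890, 938 and 1464. Replicate 3 lay above all others in each of the 3 genes, with replicate 4 between in Scg2 and Scd1. Srxn1, which repairs oxidised peroxiredoxin, had 1000 on replicate 3, against 409, 413 and 706, and its other 2 probes were also highest on replicate 3 and next on replicate 4, with 351 and 332 on replicate 3, against 132 to 234 on the others. Hmox1, which degrades heme, had 875 on replicate 3, against 359, 365 and 583. Not all probes of a gene shared the difference. Arpp21 had 3308 on replicate 3, against 918, 897 and 1085, but its second probe had 1482, against 1336, 1295 and 1034, and Fosl2 had 1740, against 530, 582 and 507, while its other probes lay at or below the detection limit. Nxph2, a secreted ligand of neurexins, was lower on replicates 3 and 4, with 508 and 587, against 1251 and 1355 on replicates 1 and 2. Fbxw5 differed on replicate 2, with 1637, against 674, 607 and 567.

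**Figure D5:**
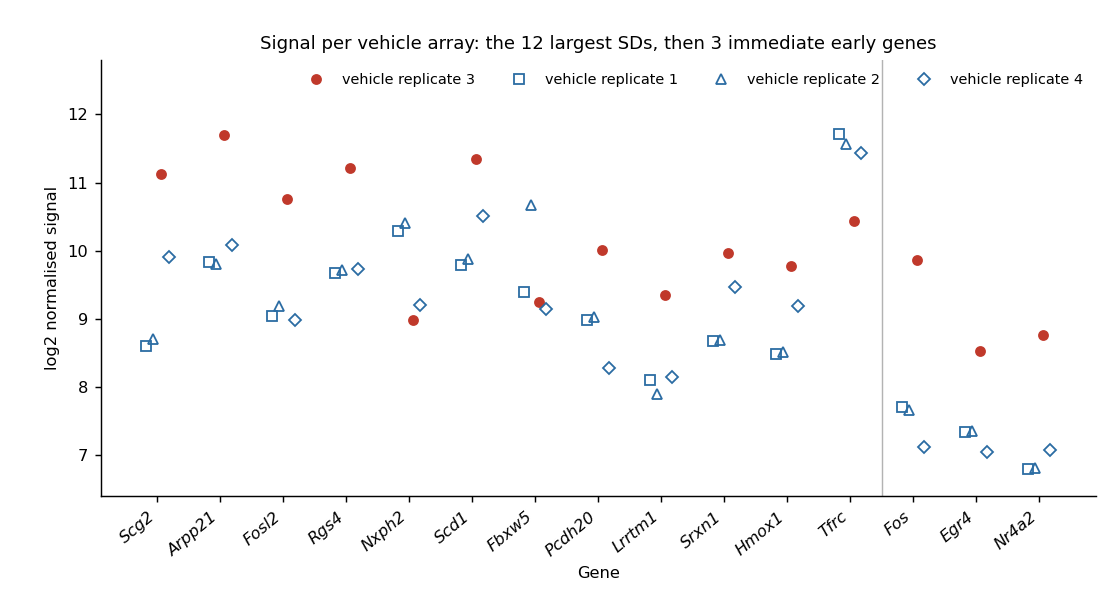
Each point is the log2 normalised signal (y axis) of a gene on 1 vehicle array, filled red for replicate 3 and open blue for replicates 1, 2 and 4, for the 12 genes of the largest SD and, right of the line, Fos, Egr4 and Nr4a2, which were chosen after their values were seen. Replicate 3 is the highest array in 12 of the 15 genes shown and the lowest in Nxph2 and Tfrc.

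The immediate early genes contained several of the largest differences. Of 30 measured genes 19 were detected at a median percentile of 35.0, with a median SD of 0.22, against 0.12 for all detected genes. Of all detected genes 30 (0.33%) were at least 2-fold higher on replicate 3, and 4 of them belong to this list (21.1% of its 19 detected genes). At a limit of 0.5 log2 units from the mean of the other arrays, 5 of the 19 genes were higher and 1 lower on replicate 3. The shares of all detected genes were 3.23% and 1.74%. On replicate 4, 0 were higher and 5 lower, where 1.11% of all detected genes were that much lower. On replicate 1, 1 was higher and 3 lower, and on replicate 2, 0 were higher and 2 lower. For replicates 1, 2 and 4 the mean of the others includes replicate 3, so an excess on replicate 3 alone makes them count as lower. Fos, a subunit of the AP-1 factor, had 932 on replicate 3, against 209, 202 and 139 on replicates 1, 2 and 4. Nr4a2, an orphan nuclear receptor, had 437 on replicate 3, against 112, 113 and 135, and Egr4 had 370, against 163, 164 and 132. The remaining one is Fosl2. Replicate 3 lay above all other arrays in each of these genes, and replicate 4 was the lowest array for Fos, Egr4 and Fosl2. Egr1 did not follow, with 1076 on replicate 3 and 777 on replicate 4, against 1572 and 1356 on replicates 1 and 2. Klf6 had 3253 on replicate 3, against 2247, 1979 and 2075, and Jun had 240, against 352, 367 and 396. Arc (100 to 109) and Egr3 (83.5 to 93.7) were near the detection limit on all arrays, and Nr4a1, Ier2, Fosl1, Klf4 and Ptgs2 were detected on none.

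Markers of other cells also moved with replicate 3. Dividing cell genes were higher on it, by a median of 0.38 log2 units over the 17 detected genes, against a median of -0.03 over all detected genes. Of these 17 genes 5 were at least 0.5 log2 units higher and 0 that much lower, where 3.23% and 1.74% of all detected genes were. Plk1 had 562 on replicate 3, against 276, 290 and 341, and Ccnb1 had 483, against 240, 275 and 341. The 21 measured genes summed to 7374 on replicate 3, against 6198, 5725 and 5601. Astrocyte genes were lower on replicate 3 by a median of 0.21 and higher on replicate 4 by a median of 0.24 log2 units, each against the mean of the other arrays. At a limit of 0.5 log2 units 0 of the 15 detected astrocyte genes were higher or lower on replicate 3, and 3 were higher and 0 lower on replicate 4, where 1.1% of all detected genes were that much higher. The part of cell composition in the difference of replicate 3 was not tested.

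Start sequences are given for the genes among the 6 with the largest excess on replicate 3 (Fos, Scg2, Nr4a2, Arpp21, Fosl2 and Rgs4) that hold, within 100 bases before and 20 bases from the start, the cyclic AMP response element TGACGTCA or the TATA box TATAAA on either strand, shown in capitals. The sequence is from RefSeq, GRCm38.p6, on the gene's strand.
Fos (chr12:85473790-85473909, + strand): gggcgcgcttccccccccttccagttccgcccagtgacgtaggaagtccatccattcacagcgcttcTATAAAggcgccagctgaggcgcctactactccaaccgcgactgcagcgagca
Scg2 (chr1:79440007-79440126, - strand): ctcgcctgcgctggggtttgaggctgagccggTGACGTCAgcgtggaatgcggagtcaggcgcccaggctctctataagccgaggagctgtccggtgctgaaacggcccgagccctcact
Rgs4 (chr1:169747623-169747742, - strand): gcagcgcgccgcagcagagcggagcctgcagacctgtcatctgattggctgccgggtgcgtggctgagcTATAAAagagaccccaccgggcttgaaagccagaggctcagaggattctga

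In the longer window the element TGACGTCA was found in 1 of 23 genes at least 2-fold higher on replicate 3 that have a RefSeq start (4.35%), against 2.53% of all genes with a probe. The box TATAAA, on either strand, was found in 4 of the 23 (17.4%), against 12.6% of all genes. These shares are near those of all genes.

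At the other end of the spread, Ubb, Dmap1, Lypla2, Ddah2, Map1s and Nus1 had the 6 smallest SDs above the median signal, at most 0.01. Scaling to a common distribution gives genes of the same rank the same value, so Ubb, first on all arrays, has an SD of 0 by construction. With arrays scaled by their medians only, the SD of the 6 genes was 0.07 to 0.13.

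Between the chips no gene passed the test. With limma on all 9085 detected genes, 0 (0.0%) differed between replicates 3 and 4 and replicates 1 and 2 at a Benjamini-Hochberg adjusted p under 0.05, and 674 had an unadjusted p under 0.05. The fit has 2 residual degrees of freedom, and replicates 3 and 4, the most different pair, set its error. Without replicate 3 the count was 1019 and without replicate 4 it was 1880, where a lone array stands for its chip and is assumed to vary as replicates 1 and 2 do. In those fits a chip cannot be told apart from a single array.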

How the data were processed

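Per the labels' protocols, RNA of the 4 vehicle samples was purified on RNeasy columns, and the Ambion MessageAmp kit was used to make biotinylated cRNA. The deposited probe table holds the mean bead signal intensity per probe, which the authors had not scaled between arrays. A gene level table made in BeadStudio 3.2.6 without normalization, per the file headers, gives signal intensity, bead SD and bead number per gene. Per the file headers it also holds a detection score, a fraction from which the detection p follows as 1 minus the score. The authors' normalized values were found to be a ratio: each signal divided by its array's median, then by the gene's median among vehicle arrays. The largest relative difference from that formula was 3.0e-07. Not used were 112 columns of other arrays or measures in the gene level file.

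The probe table has no detection p, so neqc could not be run on it and normexp background correction (offset 50) with quantile normalization over the 4 arrays was used, on the log2 scale (limma 3.58.1, R 4.3.3, Python 3.11.15). Each vehicle sample was tied to the gene level array with identical signals (tolerance 0.05). The 14713 probes matched to a gene of that table took its detection p. For the other probes it was read from that array's relation of score to signal. Symbols came from RefSeq accessions (20514 probes) or the deposited description (2554), and 1545 of 24613 probes had none and were left out. Where both gave a symbol, 18632 of 18734 were the same. The brightest probe stands for a gene. The chips were compared with lmFit and eBayes (trend), two-sided, a script tested on simulated data. The number of arrays limits the precision.

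The 37 gene lists hold 13 sets of cell type markers and 24 families. The rule names the 25 brightest genes, all members of lists of up to 16 measured genes, and of longer lists the 6 brightest, the 3 dimmest detected and those detected on no array. It also names the 12 largest and 6 smallest SDs above the median signal. Not all such genes are printed, and some that the rule names are not reported here. Fos, Nr4a2, Egr4, Egr1, Jun, Plk1, Ccnb1, Reln, Slc2a3, Slc12a2 and other members named for their role or pattern were chosen after their values were seen. Members and lists were chosen with earlier results of these data known. The alternatives were no background correction, log2(signal + 16), median scaling, no scaling, a detection p under 0.01, detection on at least 1 array, the mean of probes, the authors' gene level table, no trend, and leaving out each array. The authors' ratios, the values of replicate 3 and the mean of replicates 1 and 2 as 1 sample were added after seeing the data.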

Additional observations from a re-analysis of the deposited data

Results flagged for a closer look

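In each gene named, and in 3 measures per array, the highest or lowest of the 4 arrays was compared with its nearest neighbour, and the result was noted where that gap took up more of the whole range than the critical value of Dixon's test for 4 values. Of 234 sets of 4 values 24 passed. Chance alone gives about 1 in 20 among values not picked for their spread, but some of these genes were named for a large or small SD or after their values were seen, so the count is a description and is not set against that share.

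On replicate 3 the highest array was set off in 8 genes. Rgs4 had 2370, against 820, 843 and 848 on replicates 1, 2 and 4 (gap 0.969 of the range). The gap was 0.888 for Fosl2, 0.863 for Nr4a2 and 0.854 for Arpp21, whose values stand above. The replication gene Mcm5 had 782, against 494, 493 and 450 (0.831), and Neurog2, a factor of neuronal progenitors, had 151, against 124, 127 and 124 (0.883). Unc13a (0.867) lay within 79.9 to 91.1, near the detection limit. Rps20 (1.0) takes the same scaled value on the other arrays, a tie made by scaling to a common distribution.

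Replicate 3 was the low array in 4 genes. Acta2, the actin of smooth muscle, had 742, against 1265, 1245 and 1166 (0.848). Bcas1, a gene of maturing oligodendrocytes, had 258, against 418, 395 and 404 (0.885). Camk2a had a gap of 0.873 and Eno2 one of 0.835.

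Replicate 4 was the high array for Gfap, with 329, against 174, 170 and 180 (0.916), for the myelin gene Cnp (0.882) and for Gapdh (0.846). It was the low array for Gad1, with 1904, against 3034, 3037 and 3189 (0.904), for Cux1 (0.892), Elavl2 (0.886), Eomes (0.865) and Tnc (0.844), and for Ybx1 (1.0), which has the same kind of tie on the other arrays. The low genes include neuronal genes (Gad1, Cux1, Elavl2), a progenitor gene (Eomes) and a radial glia gene (Tnc).

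On replicate 2 Fbxw5 was high (0.837). Replicate 1 was low for Egr3 (0.881), which lies near the detection limit, and for Lypla2 (1.0), which is tied on the other arrays too.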

How the results depend on the processing

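The counts of detected genes, of detected list members and the median SD kept within 1.5 times their value, or within the spread between pairs of arrays, under every alternative run. Detected genes numbered 9144, 9176, 9180 and 9281 when 1 of the arrays was left out, detected list members 533 to 541 against 531, and the median SD 0.0958 to 0.127 against 0.122. With no scaling between arrays the median SD was 0.162, and with replicates 1 and 2 averaged into 1 sample it was 0.124. Of the 25 brightest genes 16 kept their place with the mean of probes, and 16 with the authors' gene level table, where genes with several probes have another value by construction, and 23 or 24 did so when an array was left out. Between the chips limma called 0 genes under every alternative with all 4 arrays that was listed at the outset, 10 with the authors' normalized ratios (added later), and 0 to 1880 when 1 array was left out. It called 0 without replicate 1 or 2, 1019 without replicate 3 and 1880 without replicate 4, which removes the most different pair from the error. The chips as identical signals give them hold the same replicates as the labels' chips, so that count is the same. The number of genes in which replicate 3 was at least 2-fold apart, 34, ranged between 23 and 44. The median percentile of a list moved by a median of 0.43 to 0.94 points when an array was left out, by 4.77 when detection on 1 array was enough, by 4.38 with the mean of probes and by 2.66 with the authors' gene level table. Of the 37 lists 30, 26 and 20 moved by more than their spread between arrays in these 3 settings, and 1 to 5 did so without an array. The growth cone list had a median of 82.5 with the mean of probes (97.3 as reported), tissue isozymes 80.6 without replicate 3 (91.3), sex-linked genes 45.7 with detection on 1 array (68.4), and choroid plexus genes, of which 2 were detected, 5.21 without replicate 2 and 2.19 with the authors' table (35.8). Genes near the detection limit are limited by signal over background, and their folds are understated by the offset. Fosl2 exceeded the other arrays by 1.69 log2 units on replicate 3, and by 0.55 with the mean of probes. No paired analysis was possible because the 4 vehicle arrays form 1 group and are not compared with any other.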

Other observations

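Some gene groups not described above had members at the top of the signal range. Of 23 measured genes of neurotrophins, other growth factors and their receptors 14 were detected. Sort1, a sorting receptor for neurotrophin precursors, stood at percentile 94.1, Fgf13, an intracellular regulator of sodium channels, at 92.1 and Vegfb at 86.2. Ntrk3, the receptor of neurotrophin-3, stood at 58.7 and Ntrk2, the receptor of brain-derived neurotrophic factor, at 26.9. Bdnf was detected on some arrays only, and Ngfr, Gdnf and Ret on none.

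Of 23 neuronal RNA-binding protein genes 17 were detected at a median percentile of 67.3. Rbfox1, a splicing regulator of neurons, had 4971, 4550, 4927 and 3293 on replicates 1 to 4, with replicate 4 low. Celf2 (92.7) and Elavl2 (85.4) were also bright. Ptbp1, the splicing repressor of non-neuronal cells and progenitors, had 510, 545, 649 and 505, while Ptbp2, its counterpart in young neurons, was detected on no array.

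Of 11 measured sex-linked genes 4 were detected on all arrays. These were the X chromosome genes Eif2s3x (85.2), Kdm6a (69.2) and Ddx3x (67.5) and the Y gene Zfy2, which lay near the detection limit with 84.5 to 95.9. The X gene Kdm5c and the Y gene Kdm5d were detected on some arrays only, and the Y genes Ddx3y, Eif2s3y, Uty, Usp9y and Zfy1 on none. The labels do not give the sex of the fetuses.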
